A study of Mus musculus with 23 samples.

Results

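Npy and Cartpt, which encode a pair of hypothalamic feeding peptides, were examined together with 7 genes for receptors that carry appetite signals. The receptor genes were Mc3r and Mc4r for melanocortins, Npy1r, Npy2r and Npy5r for neuropeptide Y, Ghsr for ghrelin and Glp1r for glucagon-like peptide 1. The 9 genes were chosen by name, with earlier results of these data known, out of 18704 genes measured. Each was read by a single probe set naming no other gene. Their levels were followed on 23 microarrays, each of 1 hypothalamus sample from male db/db mice. These mice carry a defective leptin receptor, so every group here lacked functional leptin signalling, and they become obese and diabetic. The animals were 8 weeks old, ate normal chow for 2 weeks, and received intraperitoneal injections of celastrol or of the vehicle, DMSO (25 µl per day). Celastrol is a triterpenoid compound from plants that has been reported to reduce eating in obese mice. Whether it did so in these db/db mice was not examined here. RNA was taken at 6 h with celastrol (3 arrays, 250 µg/kg) and with vehicle (4 arrays), at 1 day with celastrol (4 arrays) and vehicle (4 arrays), and at 4 days with celastrol (4 arrays) and vehicle (4 arrays). The labels do not state the celastrol dose at 1 day and 4 days clearly, and it is not used here. Arrays of the same group are labelled as biological replicates.

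Neuropeptide Y is made in arcuate neurons that drive eating, the same neurons that make agouti-related peptide, and leptin normally restrains them. CART, the product of Cartpt, is made in arcuate neurons that also express Pomc and in other hypothalamic nuclei, and reduces eating. Melanocortins cut from the Pomc precursor act on MC3R and MC4R to reduce eating, while NPY acts on Y1 and Y5 receptors to increase it and on Y2 receptors, which also bind peptide YY, to inhibit the neurons that release it. Ghrelin from the stomach stimulates eating through GHSR, and GLP-1 reduces it through GLP1R.

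The regulatory stretches of the peptide genes are shown because Npy and Cartpt are the 2 members that encode peptides. Both are the 250 bases before the gene's start, from RefSeq (GRCm38.p6), written 5′ to 3′ on the gene's strand. Npy lies at chr6:49822460-49822709 on the plus strand and Cartpt at chr13:99900684-99900933 on the minus strand. Capitals mark matches to the motifs searched on both strands, which were the cyclic AMP response element TGACGTCA, the STAT site TTCNNNGAA, the GC box GGGCGG, the CCAAT box CCAAT and the TATA box TATAAA.
Npy: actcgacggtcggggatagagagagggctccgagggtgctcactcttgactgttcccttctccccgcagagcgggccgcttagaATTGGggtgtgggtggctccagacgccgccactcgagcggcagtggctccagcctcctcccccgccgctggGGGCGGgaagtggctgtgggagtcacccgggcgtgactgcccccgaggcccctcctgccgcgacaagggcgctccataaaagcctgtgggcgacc
Cartpt: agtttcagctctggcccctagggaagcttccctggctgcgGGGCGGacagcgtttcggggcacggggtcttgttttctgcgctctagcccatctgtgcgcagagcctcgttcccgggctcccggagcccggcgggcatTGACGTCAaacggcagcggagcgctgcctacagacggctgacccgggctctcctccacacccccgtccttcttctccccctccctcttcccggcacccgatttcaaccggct

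The Npy stretch held a GC box whose first base lay 95 bases before the start and a CCAAT box on the other strand at 166 bases. The Cartpt stretch held a cyclic AMP response element at 112 bases and a GC box at 210 bases. Of the 8 members with a promoter in the table, Cartpt was the only one with this element, which 1.55% of all 32851 listed promoters held in the same window. GC boxes were found in 4 of the 8 (Npy, Cartpt, Npy2r and Glp1r) and in 32.7% of all promoters, and CCAAT boxes in 3 of the 8 (Npy, Mc3r and Npy5r) and in 33.8%. No match to the STAT site or the TATA box lay in the 8 windows, against 7.02% and 12.4% of all promoters. The motifs did not overlap each other in the Npy and Cartpt stretches.

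The tissue label was checked against neuropeptides of hypothalamic nuclei, with no detection call in the table to say whether a probe set was above background. Over the 23 arrays, log2 levels ran between 12.58 and 13.10 for Hcrt, the orexin precursor, between 12.85 and 13.48 for Pmch, the melanin-concentrating hormone precursor, and between 11.82 and 12.64 for Avp, the vasopressin precursor. The mean level of 16 hypothalamic marker genes lay between 10.13 and 10.39 on every array. Among these 16 genes, Crh ran between 6.96 and 7.5 and Gnrh1 between 7.65 and 8.55, below the lowest array median of 8.57. Nr5a1 (8.36 to 8.85) and Six6 (8.45 to 9.01) lay on both sides of it, and the remaining markers stayed above 8.64. Prl, the prolactin gene of the pituitary, exceeded 9 on the log2 scale on 4 arrays, all vehicle (2 at 6 h, 1 at 1 day and 1 at 4 days), and on 0 celastrol arrays. Other pituitary markers did not all follow Prl. At 6 h the mean over 10 of 12 pituitary markers lay between 8.3 and 8.78 with celastrol and between 7.78 and 9.49 with vehicle. Of these 10 genes, 5 were higher and 5 lower with celastrol at that time. Median log2 levels per array lay between 8.57 and 8.64, and precision is limited by how many arrays each group has. In whole tissue, fewer cells of a type and less RNA per cell cannot be told apart.

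Set against vehicle, celastrol left none of the 9 genes past the threshold at any of the 3 times. The comparison asks which of these appetite genes celastrol changed in leptin-receptor-deficient mice. In limma's fit to all genes, 0 of 9 members passed at an adjusted p of 0.05 at 6 h, where 0% of the 18704 genes passed, 0 of 9 at 1 day, where 0.016% passed, and 0 of 9 at 4 days, where 0% passed. At an unadjusted p under 0.05, 1 member was found at 6 h (Npy2r), 0 at 1 day and 1 at 4 days (Mc4r), against 14.8%, 12.5% and 7.29% of all genes. For the mean celastrol effect over the times, 0 of 9 passed (0% of all genes), with 0 members at an unadjusted p under 0.05 against 13.5% of all genes. The p-values measure the spread between these samples. All values below are log2 expression as deposited, and each difference is celastrol minus vehicle of the same time.

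**Figure D1:**
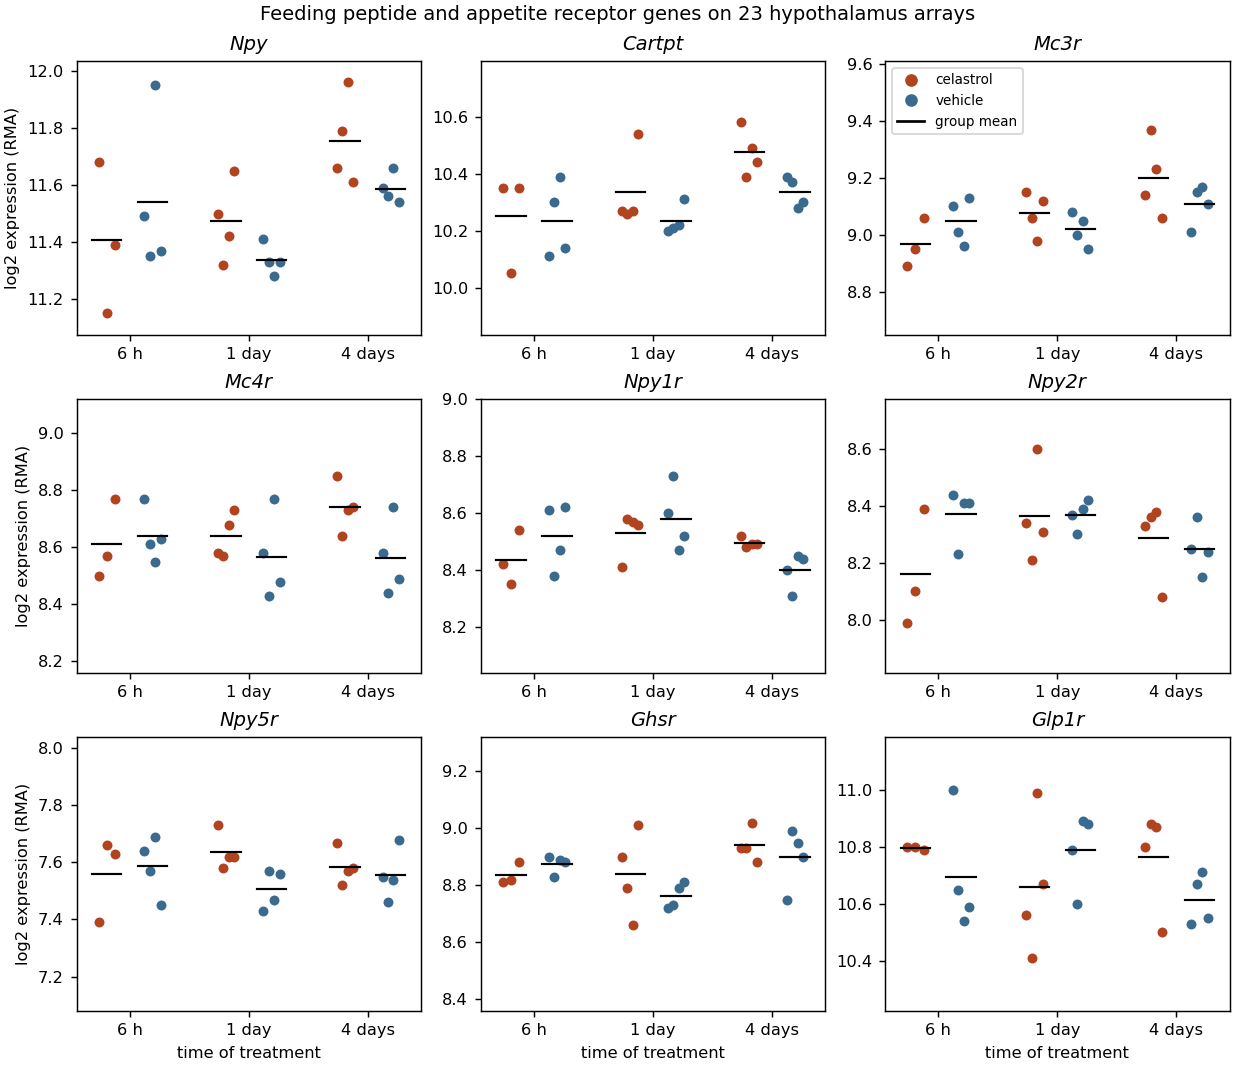
Log2 expression of the 9 genes on each of the 23 arrays (points), by time of treatment on the horizontal axis, with celastrol left of vehicle and bars at group means. Every panel spans the same height on the log2 scale, and the largest spread within panels is that of Npy, whose arrays run between 11.15 and 11.96.

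Npy (probe set 10538247) varied more between arrays of a group than most genes, with a residual SD of 0.175 on the log2 scale against a median of 0.0942 over all genes. At 6 h its levels were 11.68, 11.15 and 11.39 with celastrol, against 11.49, 11.35, 11.95 and 11.37 with vehicle. The groups overlapped, and 1 vehicle array stood above every other array of that time. The log2 difference was -0.13 ± 0.121 (SE, limma, adjusted p = 0.605), and it was 0.003 without that vehicle array, replicate 3, -0.269 without celastrol replicate 1 and -0.31 without the vehicle arrays with Prl above 9.

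At 1 day Npy stood at 11.50, 11.32, 11.42 and 11.65 with celastrol, against 11.41, 11.33, 11.28 and 11.33 with vehicle. Of the celastrol arrays, 3 of 4 exceeded every vehicle array, and the difference was 0.13 ± 0.112 (SE, limma, adjusted p = 0.653), or 0.076 without celastrol replicate 4. At 4 days Npy reached 11.66, 11.79, 11.96 and 11.61 with celastrol, against 11.59, 11.56, 11.66 and 11.54 with vehicle. The difference of 0.17 ± 0.112 (SE, limma, adjusted p = 0.824) was within the spread between arrays, and it was 0.096 without celastrol replicate 3. Its 95% confidence interval on the fold scale reached from 0.955 to 1.32, so that a rise of more than 1.32-fold at 4 days lies outside the interval.

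Cartpt (probe set 10411527) showed close values in both treatments at 6 h, with 10.35, 10.05 and 10.35 with celastrol, against 10.11, 10.30, 10.39 and 10.14 with vehicle. The difference was 0.02 ± 0.0801 (SE, limma, adjusted p = 0.935). At 1 day, 3 celastrol arrays lay between 10.26 and 10.27 and the other stood at 10.54, against 10.20, 10.21, 10.22 and 10.31 with vehicle, a difference of 0.10 ± 0.0742 (SE, limma, adjusted p = 0.603). It was 0.032 without the celastrol array at 10.54, replicate 4. At 4 days the levels were 10.58, 10.39, 10.49 and 10.44 with celastrol, against 10.39, 10.37, 10.28 and 10.30 with vehicle. The groups did not overlap, celastrol being higher and the closest arrays of the 2 groups both rounding to 10.39, and the difference was 0.14 ± 0.0742 (SE, limma, adjusted p = 0.723). The mean celastrol effect over the times was 0.09 ± 0.044 (SE, limma, adjusted p = 0.394).

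Mc4r (probe set 10459512), the receptor whose loss causes obesity in mice and people, had the largest difference among the members at 4 days. Its levels were 8.85, 8.64, 8.73 and 8.74 with celastrol, against 8.58, 8.44, 8.74 and 8.49 with vehicle. The groups overlapped in 1 vehicle array, and the difference of 0.18 ± 0.0782 (SE, unadjusted p = 0.0309, limma, adjusted p = 0.63) corresponded to 1.13-fold, with a 95% confidence interval of 1.01 to 1.27. Without the vehicle arrays with Prl above 9 it was 0.14. At 6 h Mc4r averaged 8.61 ± 0.144 (SD, n = 3) with celastrol and 8.64 ± 0.093 (SD, n = 4) with vehicle, and at 1 day 8.64 ± 0.0805 with celastrol and 8.56 ± 0.154 with vehicle (SD, n = 4 each).

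Mc3r (probe set 10478959), the melanocortin receptor that is itself expressed in the arcuate nucleus, stood at 8.89, 8.95 and 9.06 with celastrol at 6 h, against 9.10, 9.01, 8.96 and 9.13 with vehicle. Of the celastrol arrays, 2 of 3 lay below all vehicle arrays, with a difference of -0.08 ± 0.0667 (SE, limma, adjusted p = 0.56), which was -0.043 without celastrol replicate 1 and -0.128 without celastrol replicate 3. At 4 days the values were 9.14, 9.37, 9.23 and 9.06 with celastrol, against 9.01, 9.15, 9.17 and 9.11 with vehicle, a difference of 0.09 ± 0.0618 (SE, limma, adjusted p = 0.814). It was 0.037 without celastrol replicate 2 and 0.14 without celastrol replicate 4. At 1 day Mc3r averaged 9.08 ± 0.0752 with celastrol and 9.02 ± 0.059 with vehicle (SD, n = 4 each).

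Among the NPY receptor genes, Npy2r (probe set 10498965), for the receptor through which NPY neurons inhibit their own release, had the lowest celastrol value relative to vehicle at 6 h. It stood at 7.99, 8.10 and 8.39 with celastrol, against 8.44, 8.23, 8.41 and 8.41 with vehicle. Of the celastrol arrays, 2 of 3 lay below every vehicle array and the other lay among them. The difference of -0.21 ± 0.0921 (SE, unadjusted p = 0.0297, limma, adjusted p = 0.293) corresponded to 0.862-fold, with an interval of 0.755 to 0.984. The difference was -0.128 without celastrol replicate 1 and -0.331 without celastrol replicate 3. At 1 day Npy2r averaged 8.37 ± 0.165 with celastrol and 8.37 ± 0.0504 with vehicle, and at 4 days 8.29 ± 0.138 with celastrol and 8.25 ± 0.0842 with vehicle (SD, n = 4 each).

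Npy1r (probe set 10572070), for the Y1 receptor, was tightest with celastrol at 4 days, where its levels were 8.52, 8.48, 8.49 and 8.49, against 8.40, 8.31, 8.45 and 8.44 with vehicle. The lowest celastrol array exceeded the highest vehicle array, with a difference of 0.10 ± 0.0617 (SE, limma, adjusted p = 0.805). Counting members of this kind, 2 of 9 (Cartpt and Npy1r) had all celastrol arrays above all vehicle arrays at 4 days, against 1.87% of all genes, and 0 of 9 had all below, against 1.63%. At 6 h Npy1r averaged 8.44 ± 0.0962 (SD, n = 3) with celastrol and 8.52 ± 0.118 (SD, n = 4) with vehicle, and at 1 day 8.53 ± 0.0775 with celastrol and 8.58 ± 0.113 with vehicle (SD, n = 4 each).

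Npy5r (probe set 10578973), for the Y5 receptor, was the 1 member of 9 with all celastrol arrays above all vehicle arrays at 1 day, against 6.44% of all genes, and 0 of 9 had all below, against 4.56%. Its levels were 7.73, 7.58, 7.62 and 7.62 with celastrol, against 7.43, 7.57, 7.47 and 7.56 with vehicle, the nearest arrays of the groups standing at 7.58 and 7.57. The difference was 0.13 ± 0.0635 (SE, limma, adjusted p = 0.424). At 6 h (-0.03) and at 4 days (0.02) the differences were smaller than the SE of 0.0686 and 0.0635, and the 4-day difference was -0.009 without the vehicle arrays with Prl above 9. At 6 h, 0 of 9 members had groups that did not overlap, against 5.97% of all genes with celastrol above and 4.29% with celastrol below. Npy5r was also the 1 member in the lowest tercile of genes by level.

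Ghsr (probe set 10491098), the ghrelin receptor gene, averaged 8.84 ± 0.0403 (SD, n = 3) with celastrol and 8.87 ± 0.0287 (SD, n = 4) with vehicle at 6 h. At 1 day the means were 8.84 ± 0.148 with celastrol and 8.76 ± 0.0462 with vehicle, and at 4 days 8.94 ± 0.059 with celastrol and 8.89 ± 0.107 with vehicle (SD, n = 4 each). Its differences lay between -0.04 and 0.08 (limma, adjusted p between 0.635 and 0.945), and the 95% confidence intervals over the 3 times stayed between 0.888-fold and 1.15-fold.

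Glp1r (probe set 10443690), the receptor of GLP-1 and of drugs that mimic it, varied as widely within groups as Npy, with a residual SD of 0.17. At 6 h the 3 celastrol arrays were almost equal at 10.80, 10.80 and 10.79, against 11, 10.65, 10.54 and 10.59 with vehicle. At 1 day the arrays stood at 10.56, 10.41, 10.99 and 10.67 with celastrol, against 10.79, 10.60, 10.89 and 10.88 with vehicle. At 4 days they stood at 10.80, 10.88, 10.87 and 10.50 with celastrol, against 10.53, 10.67, 10.71 and 10.55 with vehicle, where 3 of 4 celastrol arrays exceeded every vehicle array and 1 fell short of them all. The differences were 0.10 ± 0.118, -0.13 ± 0.109 and 0.15 ± 0.109 at 6 h, 1 day and 4 days (SE, limma, adjusted p = 0.689, 0.649 and 0.844). Leaving out 1 array moved them between 0.05 (without vehicle replicate 3) and 0.205 (without vehicle replicate 1) at 6 h, between -0.243 (without celastrol replicate 3) and -0.049 (without celastrol replicate 2) at 1 day, and between 0.111 (without celastrol replicate 2) and 0.237 (without celastrol replicate 4) at 4 days.

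**Figure D2:**
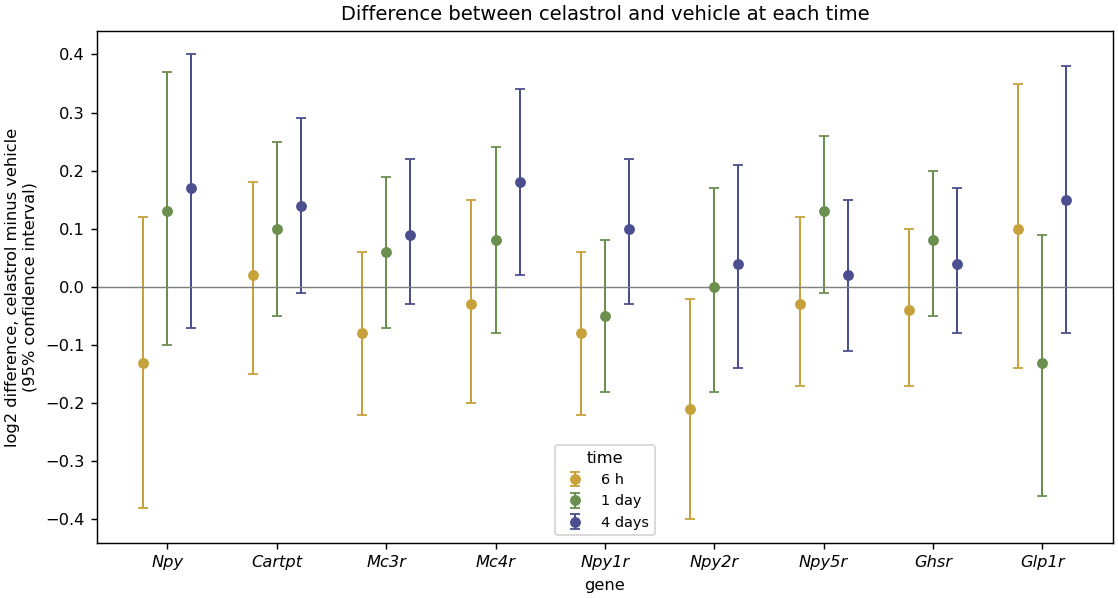
Log2 difference between celastrol and vehicle (points) with its 95% confidence interval (bars) for each of the 9 genes at 6 h, 1 day and 4 days, from limma's fit to 23 arrays. All but 2 of the intervals span 0, those of Npy2r at 6 h and Mc4r at 4 days, and neither gene passed after adjustment over all genes.

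The signs of the members' differences were counted at each time, with no test of the set. At 6 h, 2 of 9 were higher and the median log2 difference was -0.0355, beside 52.8% and 0.00723 over all genes. At 1 day, 6 of 9 were higher, with a median of 0.0761, beside 54.1% and 0.00857. At 4 days, 9 of 9 were higher, with a median of 0.0958, beside 49.7% and -0.000534. Among lists read below, 14 of 16 hypothalamic neuron markers and 7 of 9 arcuate transcription factors were also higher at 4 days. Those 2 lists share Otp, Tbx3 and Nkx2-1. Of other feeding peptide genes 9 of 16 were higher, and of other receptor genes 13 of 28. The test of whether the celastrol effect differed between times passed for 0 of 9 members (limma F test, 0.0588% of all genes), with 0 at an unadjusted p under 0.05 (13% of all genes) and adjusted p between 0.524 for Npy2r and 0.801 for Cartpt.

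Marker lists of the hypothalamus and its neighbours were read on the same arrays, and 0 of their genes passed at 4 days in limma's fit. At that time the mean over 16 of 16 hypothalamic neuron markers lay between 10.24 and 10.39 with celastrol and between 10.17 and 10.25 with vehicle. The mean over 10 of 12 pituitary markers lay between 7.97 and 8.26 with celastrol and between 8.06 and 9.29 with vehicle. The mean over 8 of 8 meningeal fibroblast markers lay between 8.39 and 8.68 with celastrol and between 8.42 and 9.22 with vehicle, and that over 10 of 10 thalamus markers between 9.29 and 9.49 with celastrol and between 9.27 and 9.98 with vehicle. The mean over 8 of 8 markers of tanycytes, glia that line the floor of the third ventricle, lay between 8.70 and 8.85 with celastrol and between 8.67 and 8.70 with vehicle. Thalamus markers also averaged lower with celastrol at 6 h (9.52, against 9.67 with vehicle) and at 1 day (9.39, against 9.56 with vehicle), with 9 of 10 genes lower at each of the 3 times. The part of these markers in the values of the 9 genes was not tested.

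The other genes of the feeding circuit were read from lists of peptide ligands, receptors, processing and accessory proteins and arcuate transcription factors, of which 66 of 70 genes were measured. Agrp, which encodes agouti-related peptide, was among those not analysed here. With celastrol, 0 of 66 passed in either direction at 6 h, at 1 day, at 4 days or for the mean effect (limma, adjusted over all genes), while 11, 11, 9 and 13 had an unadjusted p under 0.05, beside 14.8%, 12.5%, 7.29% and 13.5% of all genes. The median log2 difference of the 66 genes was 0.0228 at 6 h, 0.0257 at 1 day and 0.00716 at 4 days.

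The smallest p-values of these lists belonged to other genes than the members at each time. At 6 h, Mrap, an accessory protein of melanocortin receptors best known for the adrenal MC2R, stood at 7.82, 7.74 and 7.68 with celastrol, against 7.34, 7.57, 7.28 and 7.51 with vehicle (difference 0.32 ± 0.0758 SE, limma, adjusted p = 0.156). Gcg, the precursor gene of GLP-1, stood at 6.82, 7.18 and 6.79 with celastrol, against 6.47, 6.47, 6.62 and 6.57 with vehicle (difference 0.40 ± 0.103 SE, limma, adjusted p = 0.168). For both genes the ranges of the treatments did not overlap. At 1 day, Qrfp stood at 8.43, 8.44, 8.34 and 8.6 with celastrol, against 8.28, 8.23, 8.23 and 8.15 with vehicle. At that time the differences were 0.28 for Gcg (adjusted p = 0.242) and 0.23 for Qrfp, which encodes a feeding peptide of the RF-amide family (limma, adjusted p = 0.191). For the mean effect over the times the smallest p-values were again those of Mrap (0.18, adjusted p = 0.149) and Gcg (0.22, limma, adjusted p = 0.173). At 4 days alone the differences were 0.04 for Mrap and -0.03 for Gcg (limma, adjusted p = 0.956 and 0.974). All group means of both genes lay below the lowest array median of 8.57, and no detection call was available.

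At 4 days the smallest p-values of these lists belonged to transcription factors of arcuate neurons. Bsx, which in mice is needed for normal Npy and Agrp expression, stood at 8.53, 8.66, 8.70 and 8.70 with celastrol, against 8.54, 8.46, 8.31 and 8.50 with vehicle (difference 0.19 ± 0.0577 SE, limma, adjusted p = 0.367). Isl1, a factor of arcuate Pomc neurons, stood at 9.56, 9.68, 9.61 and 9.70 with celastrol, against 9.48, 9.60, 9.46 and 9.42 with vehicle (difference 0.15 ± 0.0558 SE, limma, adjusted p = 0.504). In both genes 1 celastrol array lay within the range of vehicle arrays. Of the 9 measured factors, 7 were higher, with a median of 0.133, and 0 passed.

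**Figure D3:**
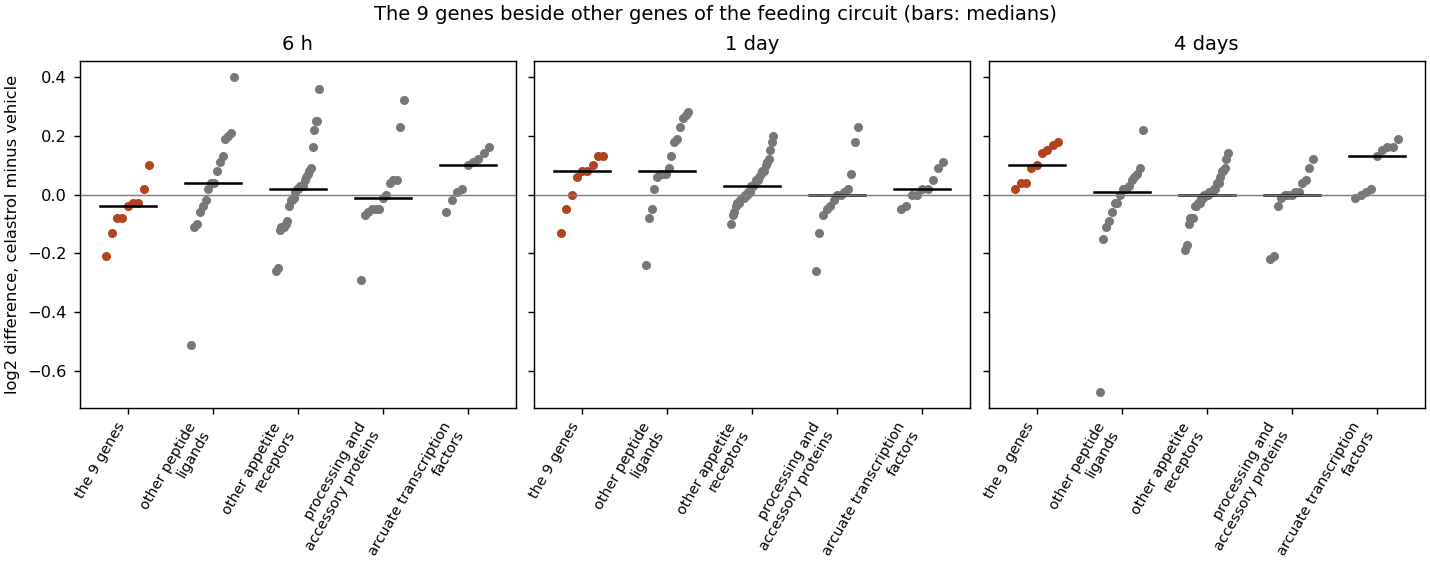
Log2 difference between celastrol and vehicle for each gene (points) of the 9-gene set and of 4 lists of other feeding-circuit genes, in panels for 6 h, 1 day and 4 days, with bars at list medians. The 9 genes lie mostly below 0 at 6 h and all above 0 at 4 days, and at 4 days the arcuate factors are the list with the highest median (0.133).

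Over time within one treatment, Npy, Cartpt, Mc3r, Mc4r and Ghsr had their highest celastrol mean at 4 days. Among vehicle groups the means of Npy (11.59), Cartpt (10.33), Mc3r (9.11) and Ghsr (8.89) were also highest at 4 days. That of Mc4r (8.64) was highest at 6 h. The test between times in celastrol mice passed for 0 of 9 members (limma F test, 0.246% of all genes), and 3 members, Npy, Cartpt and Mc3r, had an unadjusted p under 0.05, against 16.4% of all genes. Between 6 h and 4 days of celastrol, the later minus the earlier group differed by 0.35 ± 0.121 for Npy, 0.23 ± 0.0801 for Cartpt and 0.24 ± 0.0667 for Mc3r (SE, limma, adjusted p = 0.205, 0.219 and 0.132). For Mc3r all 4 arrays at 4 days reached at least 9.06 after rounding, the level of the highest of the 3 arrays at 6 h.

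In vehicle mice the same test passed for 0 of 9 members, beside 8.83% of all genes. With only 9 members, this count does not set them apart from all genes. Npy1r was the 1 member with an unadjusted p under 0.05, against 28.5% of all genes. Npy1r averaged 8.52 ± 0.118 at 6 h, 8.58 ± 0.113 at 1 day and 8.40 ± 0.0637 at 4 days with vehicle (SD, n = 4 each; limma F test, adjusted p = 0.115). Its 4-day level was 0.18 ± 0.0617 (SE) below that at 1 day (limma, adjusted p = 0.0559). The test of that pair of times is apart from the F test, and 11.8% of all genes passed in it. The ranges, 8.31 to 8.45 at 4 days and 8.47 to 8.73 at 1 day, did not overlap. The share of all genes with such ranges was not counted. Among the other feeding genes, 2 passed between times in vehicle mice, Qrfp and Pyy, the peptide YY gene (limma F test, adjusted p = 0.0465 and 0.0469). Qrfp averaged 8.38 at 6 h, 8.22 at 1 day and 8.46 at 4 days, and Pyy 7.99, 7.89 and 8.15 at the same times.

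Ordered by mean level over the 6 groups, Npy, Cartpt, Mc3r, Mc4r and Ghsr were highest with celastrol at 4 days. Npy1r was highest with vehicle at 1 day, Npy2r with vehicle at 6 h, Npy5r with celastrol at 1 day and Glp1r with celastrol at 6 h. The lowest means were found with vehicle at 1 day for Npy, Cartpt, Npy5r and Ghsr, with celastrol at 6 h for Mc3r and Npy2r, and with vehicle at 4 days for Mc4r, Npy1r and Glp1r. Of the 45 pairs of neighbours in these orders, 0 had ranges that did not overlap. Neighbours are the groups closest in mean by construction, and the share over all genes was not counted, so this count does not set the members apart. The step below the highest group was larger than the residual SD for Cartpt (0.141 against 0.11) and Mc3r (0.0933 against 0.0874), and every other step was smaller than its gene's residual SD. The next groups for Cartpt, celastrol at 1 day and vehicle at 4 days, had nearly equal means of 10.33. From the highest to the lowest group mean the distance was 0.42 on the log2 scale for Npy, 0.24 for Cartpt and 0.13 for Npy5r.

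The members were then compared for how they deviated from their group means on the same array. Correlations were computed for all 36 pairs, with p-values from 100000 permutations within groups (2-sided), and 0 of 36 passed after Benjamini-Hochberg adjustment. The closest pair was Npy2r with Glp1r over the 23 arrays (Pearson's r = 0.60, permutation p = 0.00629, adjusted p = 0.174, and Spearman's rho = 0.58, permutation p = 0.00951, adjusted p = 0.246). Without the 2 arrays farthest out in Glp1r, r was 0.48. Mc3r with Ghsr had an r of 0.54 (permutation p = 0.00969, adjusted p = 0.174) and a rho of 0.56 (permutation p = 0.0136, adjusted p = 0.246), with an r of 0.50 without the 2 arrays farthest out in Ghsr.

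The peptide genes Npy and Cartpt had an r of 0.58 (permutation p = 0.0488, adjusted p = 0.439) and a rho of 0.43 (permutation p = 0.12, adjusted p = 0.851). Without the 2 arrays farthest out in Cartpt, r was 0.40. The Y receptor genes Npy1r and Npy5r, which lie next to each other in the mouse genome on opposite strands, had an r of -0.01 (permutation p = 0.981, adjusted p = 0.982) and a rho of -0.05 (permutation p = 0.857, adjusted p = 0.972), and r was -0.07 without the 2 arrays farthest out in Npy5r.

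Against the means of 8 marker lists, 0 of 72 correlations passed after adjustment. The closest was Npy2r with the hypothalamic neuron markers (r = 0.65, permutation p = 0.00188, adjusted p = 0.135, rho = 0.65, permutation p = 0.00244, adjusted p = 0.176), with an r of 0.62 without the 2 arrays farthest out. Glp1r with the same list had an r of 0.57 (permutation p = 0.0183, adjusted p = 0.427) and a rho of 0.52 (permutation p = 0.0318, adjusted p = 0.448), with an r of 0.60 without 2 arrays. That list includes Avp, the gene found below to be closest to Glp1r, so the correlations with the list and with Avp are not separate. Npy1r with the thalamus markers had an r of 0.54 (permutation p = 0.0288, adjusted p = 0.427) and a rho of 0.56 (permutation p = 0.0156, adjusted p = 0.282), with an r of 0.43 without 2 arrays.

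Among all 18703 other genes, the one whose deviations most resembled each member's was found by the highest r over the 23 arrays, each pair of values coming from the same dissection and array, and no p is given for a gene picked as the highest. Glp1r was closest to Avp, the vasopressin gene of magnocellular neurons (r = 0.91, rho = 0.92, and r = 0.89 without the 2 arrays farthest out). Avp stood at 12.59, 12.59, 12.64 and 11.88 with celastrol at 4 days, where Glp1r stood at 10.80, 10.88, 10.87 and 10.50 on the same arrays, and the array lowest in one was lowest in the other. With celastrol at 1 day Avp stood at 12.08, 11.82, 12.48 and 12.15, and Glp1r was again lowest on the second and highest on the third of these arrays. The next gene for Glp1r was Grpr, the gastrin-releasing peptide receptor gene (r = 0.77, rho = 0.71, and r = 0.72 without 2 arrays).

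Mc4r was closest to Brs3, the gene of bombesin receptor subtype 3, whose loss makes mice obese (r = 0.85, rho = 0.75, and r = 0.80 without 2 arrays), and then to Mamld1 (r = 0.73, rho = 0.80, and r = 0.73 without 2 arrays). Npy5r was closest to Galnt6, an enzyme of O-linked glycosylation (r = 0.92, rho = 0.89, and r = 0.87 without 2 arrays), and then to Abhd6, a monoacylglycerol hydrolase (r = 0.81, rho = 0.70). Npy was closest to Psma3, a proteasome subunit gene (r = 0.83, rho = 0.73, and r = 0.72 without 2 arrays), which at 6 h stood at 11.97 on the same vehicle array, replicate 3, on which Npy was highest. Tipin was next to Npy (r = 0.82, rho = 0.71).

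For the remaining members the closest genes were Ucma (r = 0.82, rho = 0.80) and Olfr1282 (r = 0.75, rho = 0.74) for Cartpt, Xpnpep1 (r = 0.81, rho = 0.73) and Slc25a42 (r = 0.76, rho = 0.71) for Mc3r, and Rab23 (r = 0.80, rho = 0.76) and Ctage5 (r = 0.80, rho = 0.79) for Npy2r. Npy1r was closest to Ndp (r = 0.74, rho = 0.73) and Chic1 (r = 0.72, rho = 0.67), and Ghsr to Dclre1b (r = 0.77, rho = 0.72) and Adamts1 (r = 0.75, rho = 0.70). Without the 2 arrays farthest out, r stayed between 0.61 and 0.89 over all 18 genes named this way. With group means left in the values, r ran from 0.13 (Cartpt with Olfr1282) to 0.89 (Glp1r with Avp). It was 0.36 for Npy with Psma3 and 0.39 for Mc3r with Xpnpep1. Olfr1282 lay between 5.12 and 5.75 on the arrays, below the lowest array median of 8.57.

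**Figure D4:**
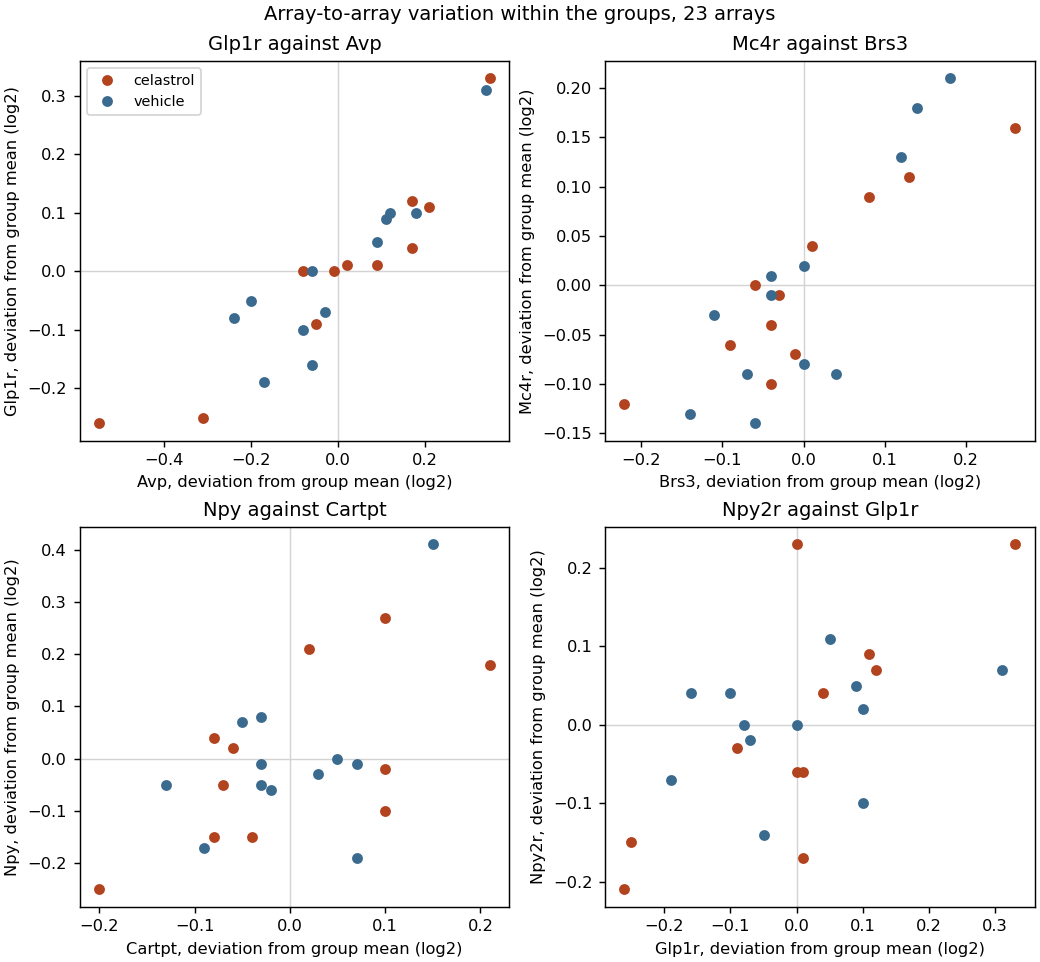
Deviation of each array from its group mean on the log2 scale, for Glp1r against Avp, Mc4r against Brs3, Npy against Cartpt and Npy2r against Glp1r, with 1 point for each of the 23 arrays, celastrol and vehicle in different colours. The Glp1r and Avp points lie close to a line (r = 0.91), while the pairs of members scatter more widely (r = 0.58 for Npy with Cartpt and 0.60 for Npy2r with Glp1r).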

How the data were processed

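Hypothalamic RNA of 23 db/db mice was measured on Affymetrix whole-transcript arrays. The deposited values are log2 expression per probe set. The submitters' processing notes name RMA, and the software version and any filters are not stated in the labels used here. Of 23492 probe sets, 20228 named 1 gene, 1399 several and 1865 none, by the platform's annotation table with symbols updated by gene identifier. Probe sets naming 1 gene were used, with the highest mean taken for the 809 genes that had several. This left 18704 genes, tested with no filter. All 9 members had 1 probe set of their own.

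Group means of the 6 groups were fitted to all arrays with limma 3.58.1 in R 4.3.3 (eBayes, 17 residual and 5.424 prior degrees of freedom) and adjusted by Benjamini-Hochberg over all genes at 0.05. The procedure was tested on simulated data. Correlations used deviations from group means (numpy 2.4.6). Named beside the members were feeding genes past the threshold or with the 2 smallest p in the celastrol comparisons and in the vehicle time test, and the 2 genes nearest each member. The members and lists were chosen with earlier results of these data known. Same-numbered arrays were checked for pairing: 2 of 11 celastrol and vehicle pairs correlated above 0.1 in their deviations (range -0.0826 to 0.188), so the numbers were not taken as pairs. Both of these pairs were at 6 h, replicate 2 (0.124) and replicate 3 (0.188), where replicate 1 had -0.00923. A batch shared at 6 h was not tested. Promoter windows came from RefSeq (GRCm38.p6), and no other coordinates were used.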

Additional observations from a re-analysis of the deposited data

Results flagged for a closer look

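In 5 of 45 sets of values, each of 1 gene in 1 group of 4 arrays, 1 array stood apart from the other 3 by Dixon's criterion. Chance exceeds it in about 1 of 20 such sets. The genes were read on the same arrays, so the sets are not independent. Cartpt stood at 10.54 on replicate 4 of celastrol at 1 day, with the next array at 10.27. Cartpt also stood at 10.31 on replicate 4 of vehicle at 1 day, with the next at 10.22. Npy1r was lowest at 8.41 on replicate 1 of celastrol at 1 day, with the next at 8.56. Npy2r was lowest at 8.08 on replicate 4 of celastrol at 4 days, with the next at 8.33, and at 8.23 on replicate 2 of vehicle at 6 h, with the next at 8.41. That vehicle array is 1 of the 4 with Prl above 9. No explanation was tested.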

How the results depend on the processing

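No member passed an adjusted p of 0.05 in any of 1973 recomputed values under 33 alternative settings, the lowest being 0.0678 (Npy1r between times in vehicle mice, without vehicle 6 h replicate 2), and 23 values changed sign. Leaving out 1 array in turn, differences ranged at 6 h between -0.269 and 0.003 for Npy, -0.034 and 0.117 for Cartpt, -0.107 and 0.032 for Mc4r and -0.077 and 0.06 for Npy5r. They ranged at 1 day between -0.082 and 0.047 for Npy2r, at 4 days between -0.009 and 0.064 for Npy5r and -0.006 and 0.076 for Ghsr, and for the mean effect between -0.028 and 0.005 for Npy1r. Without the 4 vehicle arrays with Prl above 9, Npy5r differed by -0.009 at 4 days and by -0.003 in the mean effect, and 16 genes passed at 6 h and 0 at 1 day.

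Counts over all genes moved more. Quantile normalization gave 1 gene at 1 day, 0 for effects that differ between times, 710 between times with vehicle and 29 with celastrol. Leaving out the lowest tercile gave 5 for effects that differ between times, and trend with robust variance gave 0 at 1 day and 0 for differing effects. Array weights gave 406 at 1 day, 2491 between times with vehicle and 96 with celastrol. Testing every probe set gave 1 at 1 day and 82 in celastrol mice between times. Leaving out 1 array gave 0 to 2 genes at 6 h, 0 to 7 at 1 day, 0 to 39 at 4 days (39 without vehicle 4 days replicate 4), 0 to 9 for the mean effect and 0 to 118 for differing effects (118 without celastrol 4 days replicate 4). It gave 664 to 1933 between times with vehicle and 0 to 200 with celastrol, 0 to 1 pair of members and 0 to 2 pairs of a member and a marker list. The causes were not tested.

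With the replicate block, 1 gene passed at 1 day, 1 at 4 days, 1 for the mean effect and 6 for differing effects, and no member passed. The numbers were not taken as pairs.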

Other observations

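Of 16 other feeding peptide genes, 13 were higher with celastrol at 1 day, with a median log2 difference of 0.0823 beside 54.1% higher and 0.00857 over all genes, and 0 passed after adjustment (limma, 6 at an unadjusted p under 0.05, which 12.5% of all genes had). After Qrfp and Gcg, the smallest p-values there were those of Ghrl, the ghrelin gene (0.26 ± 0.0882 SE, limma, adjusted p = 0.249), and Pyy (0.18 ± 0.0699 SE, limma, adjusted p = 0.289). Ghrl, Pyy and the next gene were chosen after their values were seen. Cck, the cholecystokinin gene, was lower (-0.24 ± 0.1 SE, limma, adjusted p = 0.333). At 4 days, 14 of 16 hypothalamic neuron markers were higher with celastrol, with a median of 0.084 beside 49.7% higher and -0.000534 over all genes, and 0 passed (limma, 4 at an unadjusted p under 0.05, which 7.29% of all genes had).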
